A study of Mus musculus with 8 samples.

Results

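The genes described here are 39 genes of proximal T cell receptor signalling, out of 49040 genes in the deposited count table. They were taken by symbol from a list of receptor chains and coreceptors, kinases, adaptors, phosphatases and negative regulators, and all 39 were found and passed the filter on low counts. RNA sequencing was done on CD4+ T cells of Ikzf4-/- mice (KO, 4 libraries) and of wild-type mice (WT, 4 libraries). The deleted gene, Ikzf4, encodes Eos, an Ikaros-family DNA-binding factor. In both groups naive cells had been kept for 72 h on plates coated with antibodies to CD3 and CD28, under conditions that polarise cells towards the Th1 fate, and the strain is labelled C57BL/6J. Age, sex, the kind of Ikzf4 allele and any pooling of animals are not in the labels, nor is it said whether the libraries numbered 1 to 4 came from separate animals or cultures. What the p-values weigh is thus the variation among these libraries, part of which may be technical.

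When the T cell receptor binds its ligand, the kinase Lck phosphorylates the tails of the CD3 and zeta chains that travel with it, and the kinase ZAP-70 docks there. ZAP-70 then phosphorylates the adaptors LAT and SLP-76, on which phospholipase C-gamma, Vav and Grb2-family proteins assemble, and the protein kinase C-theta, Bcl10 and Malt1 axis carries the signal towards NF-kappaB. Phosphatases, ubiquitin ligases of the Cbl family and inhibitory adaptors such as the Src-like adaptor proteins SLAP and SLAP2 hold the same pathway back. Cells cultured on anti-CD3 and anti-CD28 are being driven through this machinery.

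The smallest p-value among these genes fell on a brake of the pathway. Sla2, which encodes the inhibitory adaptor SLAP2, was 2.95-fold lower in KO cells. It was the only member called in the analysis with genotype as its sole term (edgeR quasi-likelihood test, Benjamini-Hochberg adjusted p under 0.05). That is 0 higher and 1 lower of 39, where 0.157% of the 14672 genes tested were called (0.0545% higher and 0.102% lower). At an unadjusted p under 0.05 there were 2 members higher and 7 lower, against 8.1% of all genes in either direction, and DESeq2 called Sla2 and Tespa1, against 1.46% of the genes it tested.

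The libraries with the same number in KO and WT deviated together, so the comparison was also made within numbers, with the replicate number as a block. In that fit 9 members fell in KO cells, namely Cd247, Cd2, Txk, Grap2, Themis, Malt1, Ptpn22, Cblb and Sla2, and 2 rose, namely Tespa1 and Ubash3b. The share called was 28.2% of 39, against 6.71% of all genes tested (4.01% lower and 2.69% higher), for a list that was chosen with earlier results of these data known. By role, 2 of 8 receptor chains and coreceptors fell, 1 of 6 kinases fell, 3 of 12 adaptors and signalling scaffolds fell and 1 rose, 1 of 5 phosphatases fell and 1 rose, and 2 of 8 other negative regulators fell. The median log2 fold change was -0.09 over the members and 0.00 over all genes tested, and 24 of 39 members (61.5%) were below 0, against 49.4% of all genes tested. A list of 45 other pathway genes, described below, leaned the same way, with a median of -0.08 and 29 of 45 (64.4%) below 0. Members also had a median level of 195 CPM (counts scaled to library size), against 19.6 CPM for all genes tested, and the part of this depth in the share called was not tested.

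**Figure D1:**
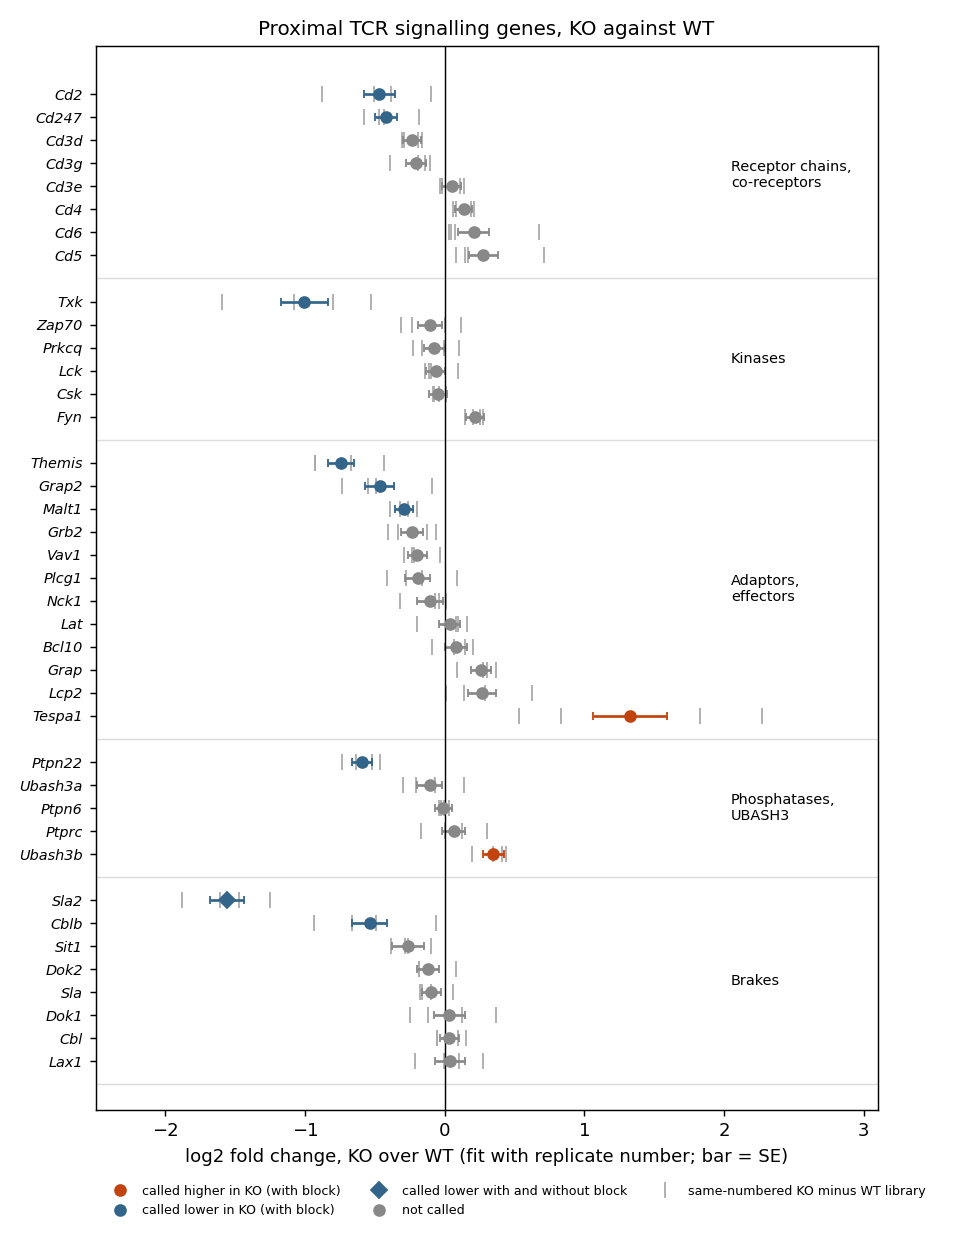
Log2 fold change of each of the 39 members in KO over WT cells, in the fit with the replicate number as a block. Bars are standard errors, thin ticks are the 4 differences between same-numbered KO and WT libraries, colour marks the 11 members called in that fit, and a diamond marks the member also called without the block. Sla2, at -1.56, lies farthest below 0 and Tespa1, at 1.33, farthest above.

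The knockout label was checked on Ikzf4, which stood at 3.31 ± 1.22 CPM in KO and 46.4 ± 6.55 CPM in WT (mean ± SD, n = 4 each). Libraries held 25227017 to 53149322 counts in KO and 25893792 to 43958781 in WT. The CD4 T cell label was checked on its markers. Cd4 was at 459 CPM or more in every KO library and 439 CPM or more in every WT library, while Cd8a stayed between 1.06 and 8.64 CPM in KO and between 1.27 and 7.78 CPM in WT. Xist was at 588 CPM in KO library 2 and 503 CPM in WT library 2, and at 0.570 CPM or less in the other 6. The Y-linked gene Ddx3y was at 0 CPM in KO library 2 and 0.028 CPM in WT library 2, and at 61.0 to 91.7 CPM in the other 6. Both libraries numbered 2 thus had the female pattern of these genes, and the other 6 the male pattern. The part of sex in differences between replicate numbers was not tested. Of the lists for other lymphocytes, the gamma-delta and natural killer lists held genes called for genotype. These were calls of the blocked edgeR fit, and without the block their edgeR adjusted p was 0.230 or more. Of the same genes, DESeq2 without the block called Trdc (adjusted p = 0.00372), Tcrg-C1 (0.0135), Tcrg-C2 (0.00285), Tcrg-C4 (0.0233) and Klrd1 (0.000229). It did not call Klre1 (DESeq2 adjusted p = 0.642). All 4 tested genes of a list of 5 gamma-delta T cell genes fell in KO in the blocked fit (summed level 6.16 to 19.9 CPM in KO, 19.7 to 71.2 CPM in WT), as did both tested genes of a list of 4 natural killer genes (1.47 to 6.90 CPM in KO, 10.6 to 24.5 CPM in WT), with the defining marker Ncr1 at 0 in all 8 libraries. Of the antigen-presenting list of 4, Cd74 rose and the other tested gene was not called (26.5 to 135 CPM in KO, 19.7 to 78.3 CPM in WT). No gene of the CD8 list of 2 (3.32 to 16.2 CPM in KO, 4.44 to 12.7 CPM in WT) or the B cell list of 4 (0.378 to 7.98 CPM in KO, 1.11 to 1.69 CPM in WT) was called. The 4 mast cell and basophil genes did not pass the filter (summed level 0.0755 to 0.585 CPM in KO, 0.0396 to 15.4 CPM in WT). WT libraries 1 and 3 stood apart in them: Mcpt8 was at 5.93 and 4.55 CPM there and Cpa3 at 3.85 and 3.17 CPM, while both were at 0 in WT libraries 2 and 4, and Prss34 was at 0 in all libraries but these. Among 4 alpha-beta T cell genes, Thy1 fell (186 to 302 CPM in KO, 373 to 680 CPM in WT). The 3 receptor constant-region genes were not called, and each overlapped between the groups. The summed level of all 4, with Thy1, was 1081 to 1200 CPM in KO and 1380 to 1660 CPM in WT. Several members, such as Cd247 and Cd2, are also used by gamma-delta T and natural killer cells, and the part of these cells in the results below was not tested. In bulk RNA, fewer cells of a type and less RNA per cell cannot be told apart.

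Sla2 lies on chromosome 2 (GRCm38, chr2:156872457-156887192, minus strand), and its product SLAP2 links the receptor complex to the ubiquitin ligase Cbl, which leads to receptor degradation. Its level was 8.58, 5.96, 6.48 and 7.63 CPM in KO libraries 1 to 4, against 23.9, 18.3, 24.0 and 18.2 CPM in WT libraries 1 to 4. The highest KO library was below the lowest WT library by more than either group's whole spread. On the log2 scale Sla2 changed by -1.56 ± 0.17 (± SE here and for all fold changes; edgeR adjusted p = 0.00782), and by -1.56 ± 0.12 with the block (adjusted p = 0.000371). The exact permutation test over libraries gave p = 0.0286, the smallest that 4 against 4 can give. The authors' deposited table, made with DESeq2, also holds it, at 1.56 as WT over KO with an adjusted p of 9.78e-14. Leaving out any 1 library kept the call (edgeR adjusted p 0.0173 to 0.0430), but without both libraries numbered 2 the adjusted p was 0.0571 in the fit without the block. Without WT libraries 1 and 3, which held the basophil marker counts, the log2 fold change was -1.35 and the call was lost as well (edgeR adjusted p = 0.191), with WT libraries 2 and 4 still above every KO library. Sla2 shares 1107 bases with Rab5if on the other strand, a gene at 73.3 CPM in KO and 82.7 CPM in WT that was not called (log2 fold change -0.17, edgeR blocked adjusted p = 0.268). Apart from Rab5if, 12 tested genes whose symbol matched the annotation lay within 250 kb of Sla2. With the block 0 of these were called, against 6.71% of all genes tested.

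Its relative Sla, which encodes SLAP, was not called, at 210 ± 29.8 CPM in KO and 224 ± 37.7 CPM in WT (log2 fold change -0.09 ± 0.07, edgeR blocked adjusted p = 0.481). Themis and Ptpn22 were the other members whose blocked call held whichever same-numbered pair was left out. Themis, an adaptor that binds Grb2 and the phosphatase SHP-1 and is needed for thymocyte selection, had 118, 68.9, 194 and 176 CPM in KO libraries 1 to 4, against 159, 132, 309 and 335 CPM in the WT libraries. Each KO library was below its same-numbered WT library, although the groups overlapped. Themis fell 1.67-fold with the block (log2 -0.74 ± 0.09, edgeR adjusted p = 0.00312) and was not called without it (adjusted p = 0.698). Ptpn22, whose product PEP dephosphorylates Lck and ZAP-70, had 74.9, 105, 131 and 128 CPM in KO libraries 1 to 4, against 116, 175, 181 and 184 CPM in WT. Again every pair had the lower value in KO. The fall was 1.51-fold with the block (log2 -0.59 ± 0.07, edgeR adjusted p = 0.00264; adjusted p = 0.509 without it).

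Promoter windows of these 3 genes are shown because theirs are the blocked calls that held under every left-out pair. They are RefSeq sequences on GRCm38.p6, from 250 bases before to 50 bases after an annotated start, written 5′ to 3′ on the gene's strand, with capitals marking the Ikaros-family core GGGAA or its reverse complement TTCCC. The windows are chr2:156887172-156887471 on the minus strand for Sla2, chr3:103859545-103859844 on the plus strand for Ptpn22 and chr10:28668110-28668409 on the plus strand for Themis.
Sla2: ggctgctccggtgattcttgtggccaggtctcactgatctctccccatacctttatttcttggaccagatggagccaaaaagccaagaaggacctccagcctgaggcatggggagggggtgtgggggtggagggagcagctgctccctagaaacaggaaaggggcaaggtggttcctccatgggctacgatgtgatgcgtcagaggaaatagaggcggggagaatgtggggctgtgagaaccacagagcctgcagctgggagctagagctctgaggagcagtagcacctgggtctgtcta
Ptpn22: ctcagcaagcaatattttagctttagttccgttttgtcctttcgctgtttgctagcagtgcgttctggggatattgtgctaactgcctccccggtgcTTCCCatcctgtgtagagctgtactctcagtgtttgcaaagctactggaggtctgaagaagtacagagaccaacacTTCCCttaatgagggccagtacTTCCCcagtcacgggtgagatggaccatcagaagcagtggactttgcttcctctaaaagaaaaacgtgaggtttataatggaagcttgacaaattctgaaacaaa
Themis: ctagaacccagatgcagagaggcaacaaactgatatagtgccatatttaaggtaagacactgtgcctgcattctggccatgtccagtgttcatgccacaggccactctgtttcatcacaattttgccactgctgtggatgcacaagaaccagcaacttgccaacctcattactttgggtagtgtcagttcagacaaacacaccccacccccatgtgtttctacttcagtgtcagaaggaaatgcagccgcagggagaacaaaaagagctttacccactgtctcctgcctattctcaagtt
The Ptpn22 window shown holds 3 matches on the reverse strand, and the Sla2 and Themis windows shown hold 0. Ptpn22 and Themis each have a second annotated window, not shown, with 1 match for Ptpn22 (chr3:103860027-103860326) and 0 for Themis. Over the 42 windows found for 30 of the 39 members, 24 held the motif on either strand (57.1%), against 20599 of 32851 windows of the same length over all genes (62.7%). These are letter matches and say nothing on binding by Eos.

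Among the receptor chains, Cd247 differed and the CD3 chains were not called. Cd247 encodes the zeta chain, which carries most of the phosphorylation motifs of the receptor. It had 226, 178, 175 and 174 CPM in KO libraries 1 to 4, against 257, 246, 237 and 260 CPM in the WT libraries. Every KO library was below every WT library, as it was for 4 members in all (Cd247, Cd2, Vav1 and Sla2), against 2.49% of all genes tested. With Tespa1, which lay above, 5 of 39 members had groups that did not overlap, against 4.96% of all genes in either direction. Cd247 fell by 0.42 ± 0.08 on the log2 scale with the block (1.34-fold, edgeR adjusted p = 0.0181), was not called without it (adjusted p = 0.308), and lost the blocked call without pair 3 (adjusted p = 0.0990) or pair 4 (0.0780). It overlaps Pou2f1 and other genes on the opposite strand, which unstranded counting would not separate.

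Cd3d had 224, 287, 194 and 198 CPM in KO libraries 1 to 4, against 250, 355, 237 and 226 CPM in WT. The values were lower in KO in all 4 pairs, but the groups overlapped and the gene was not called (log2 -0.24 ± 0.06, edgeR blocked adjusted p = 0.0677). DESeq2 with the same block did call it, with an adjusted p of 0.036. Cd3g was like it, with 190, 260, 218 and 225 CPM in KO against 210, 342, 249 and 242 CPM in WT (log2 -0.21 ± 0.07, edgeR blocked adjusted p = 0.137). Cd3e, the third CD3 chain, had 193, 297, 210 and 263 CPM in KO against 196, 275, 214 and 239 CPM in WT, higher in KO in 2 pairs and lower in 2 (log2 0.05 ± 0.07, edgeR blocked adjusted p = 0.716).

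Cd2, an adhesion receptor that aids the contact with the presenting cell, had 434, 278, 413 and 410 CPM in KO libraries 1 to 4, against 464, 512, 538 and 583 CPM in WT. The groups did not overlap, and KO library 2 was well below the other KO libraries. Cd2 fell 1.38-fold with the block (log2 -0.47 ± 0.11, edgeR adjusted p = 0.0462), a call lost without pair 3 (adjusted p = 0.126) or pair 4 (0.124) and absent without the block (0.438). Cd4, the coreceptor that brings Lck to the complex, had 520, 695, 459 and 581 CPM in KO against 491, 602, 439 and 510 CPM in WT. All 4 pairs were higher in KO, without a call (log2 0.14 ± 0.06, edgeR blocked adjusted p = 0.263). The scavenger-type receptors Cd5 and Cd6, which restrain receptor signals, were at 800 ± 179 and 732 ± 182 CPM in KO, against 654 ± 111 and 627 ± 119 CPM in WT, also without a call (log2 0.28 ± 0.11 and 0.21 ± 0.11 with the block).

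**Figure D2:**
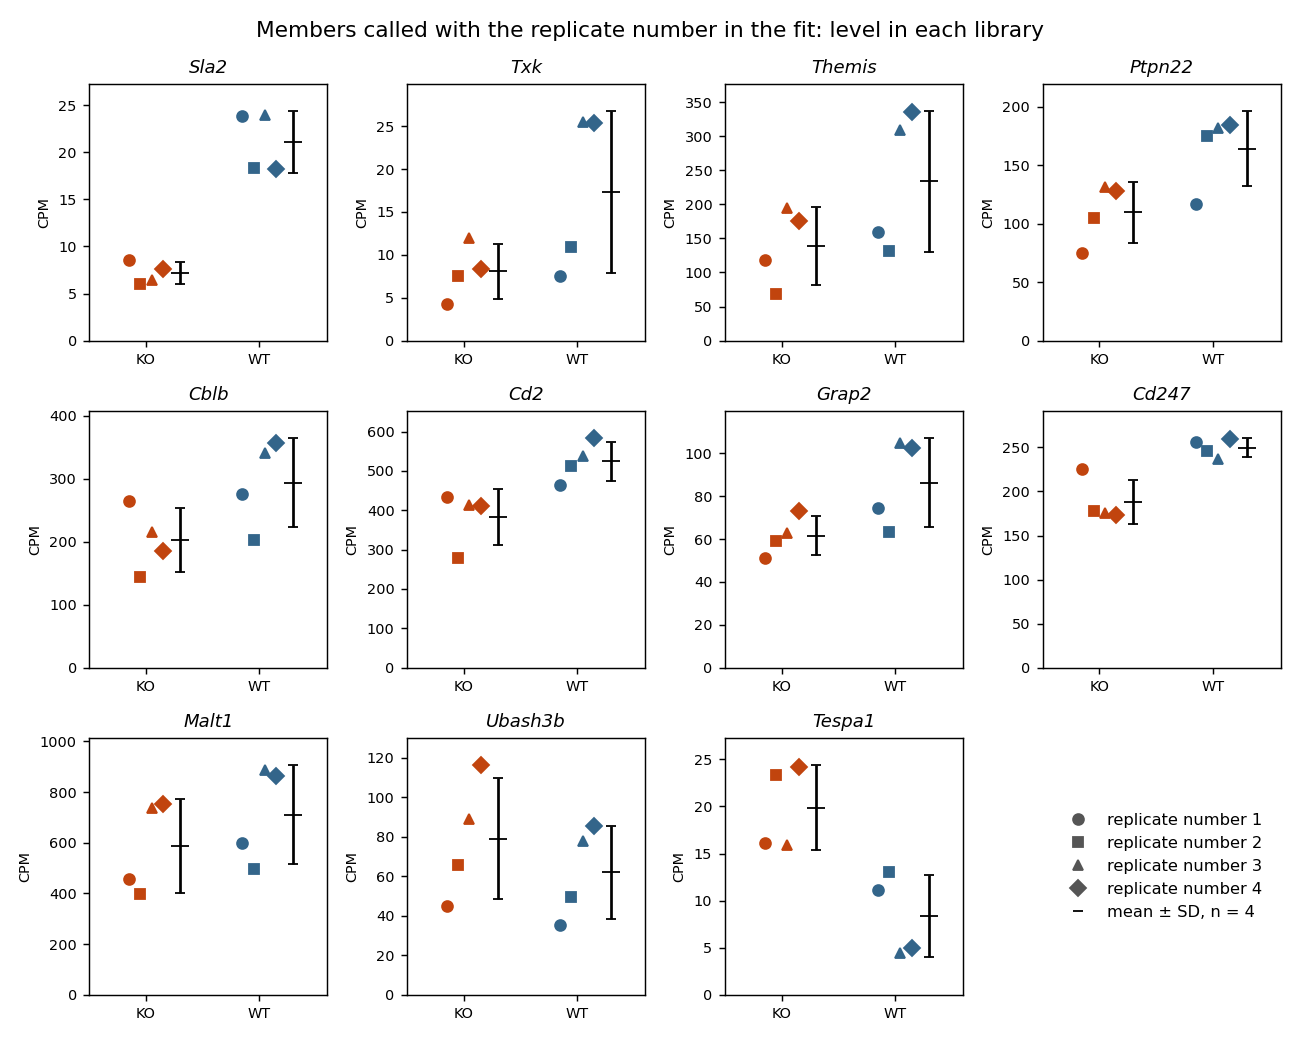
Level in CPM, on a linear axis that starts at 0, of the members called in the blocked fit, with 1 point per library, KO left of WT, the point shape giving the replicate number and bars giving mean ± SD (n = 4). In Sla2, Cd247 and Cd2 all KO points lie below all WT points and in Tespa1 all lie above, while in Themis, Ptpn22 and Malt1 the groups overlap and each KO point lies below the WT point of the same shape.

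Of the kinases, Txk alone was called. Lck, the kinase that starts the cascade, had 556, 616, 558 and 542 CPM in KO libraries 1 to 4, against 614, 577, 604 and 579 CPM in WT. Zap70 had 304, 336, 265 and 261 CPM in KO, against 305, 309, 312 and 324 CPM in WT. Neither differed beyond the spread between libraries (edgeR blocked log2 fold changes of -0.06 ± 0.07 and -0.11 ± 0.09, adjusted p = 0.640 and 0.517). Fyn, a Src-family kinase that works beside Lck, had 314, 353, 295 and 341 CPM in KO, against 283, 297, 256 and 282 CPM in WT. It was higher in KO in 4 of 4 pairs but was not called (log2 0.22 ± 0.06, edgeR blocked adjusted p = 0.0789). Csk, which holds Lck inactive, and Prkcq, which encodes protein kinase C-theta, were not called (blocked log2 -0.05 ± 0.06 and -0.07 ± 0.08).

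Txk, a Tec-family kinase also known as Rlk that acts on phospholipase C-gamma, had 4.31, 7.56, 12.0 and 8.35 CPM in KO libraries 1 to 4, against 7.52, 10.9, 25.5 and 25.3 CPM in WT. It was lower in KO in all 4 pairs and higher in the libraries numbered 3 and 4 of both genotypes. Txk fell 2.01-fold with the block (log2 -1.01 ± 0.17, edgeR adjusted p = 0.0108) and was not called without it (0.563). Without pair 3 the blocked adjusted p was 0.0511.

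Of the adaptors at the centre of the complex, Lat and Lcp2 were not called. Lat had 410, 645, 385 and 392 CPM in KO libraries 1 to 4, against 470, 611, 359 and 351 CPM in WT, and its fold change was 0.03 ± 0.08 on the log2 scale (edgeR blocked adjusted p = 0.840). Lcp2, which encodes SLP-76, had 443, 586, 377 and 475 CPM in KO, against 440, 480, 342 and 307 CPM in WT. It was higher in KO in all 4 pairs, by 0.27 ± 0.10 on the log2 scale, without a call (edgeR blocked adjusted p = 0.163). Vav1, the exchange factor for Rac, had 164, 189, 189 and 184 CPM in KO, against 193, 194, 231 and 215 CPM in WT. Its groups did not overlap, yet the fold change of -0.19 ± 0.07 was not called in either fit (edgeR adjusted p = 0.659 without the block). Plcg1, Grb2, Nck1, Bcl10 and Grap were not called either, with blocked log2 fold changes between -0.23 (Grb2) and 0.26 (Grap).

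Grap2 encodes Gads, the bridge between LAT and SLP-76. It had 51.1, 59.2, 63.0 and 73.0 CPM in KO libraries 1 to 4, against 74.7, 63.1, 105 and 103 CPM in WT. Every pair was lower in KO, with the smallest gap in pair 2. Grap2 fell 1.38-fold with the block (log2 -0.47 ± 0.10, edgeR adjusted p = 0.0352). The call was absent without the block (adjusted p = 0.532) and lost without pair 1 (0.122), pair 3 (0.185) or pair 4 (0.101). Malt1, the paracaspase that works with Bcl10, had 457, 399, 738 and 753 CPM in KO against 598, 496, 888 and 862 CPM in WT. The groups overlapped, and each KO library was below its WT partner. Malt1 fell 1.22-fold with the block (log2 -0.29 ± 0.06, edgeR adjusted p = 0.0327; 0.882 without it), a call lost without pair 1 (0.125), pair 3 (0.177) or pair 4 (0.0740).

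Tespa1, an adaptor that supports receptor signalling in developing thymocytes, was the member with the greatest rise. It had 16.1, 23.3, 16.0 and 24.2 CPM in KO libraries 1 to 4, against 11.1, 13.0, 4.45 and 4.95 CPM in WT. Every KO library was above every WT library, the only member of which this was true (2.47% of all genes tested), and the gap was widest in pairs 3 and 4. Tespa1 rose 2.51-fold with the block (log2 1.33 ± 0.27, edgeR adjusted p = 0.0224), while the fit without the block gave 1.24 ± 0.36 (adjusted p = 0.380). The authors' deposited table gives -1.24 as WT over KO with an adjusted p of 0.0414. Without pair 3 the blocked adjusted p was 0.0783.

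Tespa1 lies close to the deleted gene. It spans chr10:130322870-130364111 (GRCm38, plus strand), 1.68 Mb from Ikzf4 at chr10:128630843-128645991, whereas Fyn and Themis, also on chromosome 10, lie 89.1 Mb and 99.7 Mb away. A difference in the chromosome around the Ikzf4 allele and the loss of Eos itself cannot be told apart for a gene at this distance. Of the 36 tested genes within 2000 kb of Tespa1 whose symbol matched the annotation, 3 were called with the block (8.33%, against 6.71% of all genes tested). All 3 were lower in KO, namely Suox, Cd63 and Ikzf4, which counts here although it is the deleted gene itself. Suox was at 3.46 CPM in KO and 20.4 CPM in WT (blocked log2 -2.62, edgeR adjusted p = 0.000546). It was also called without the block (edgeR adjusted p = 0.0143), whereas Cd63 was not (0.290). These neighbours were looked up after the value of Tespa1 had been seen.

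Among the phosphatases, Ptprc, which encodes CD45 and activates Lck, had 1194, 1386, 1192 and 1494 CPM in KO libraries 1 to 4, against 1096, 1558, 1187 and 1212 CPM in WT. It was not called (log2 0.07 ± 0.08, edgeR blocked adjusted p = 0.701). Ptpn6, which encodes SHP-1, was at 403 ± 61.6 CPM in KO and 406 ± 61.3 CPM in WT, and the suppressor of signalling Ubash3a was at 49.0 ± 9.69 CPM in KO and 52.8 ± 10.1 CPM in WT, neither of them called. Ubash3b encodes Sts-1, a phosphatase that acts on ZAP-70. It had 45.0, 66.0, 88.9 and 116 CPM in KO libraries 1 to 4, against 35.4, 49.7, 77.7 and 85.8 CPM in WT. All pairs were higher in KO, the opposite of Ptpn22. Ubash3b rose 1.27-fold with the block (log2 0.35 ± 0.07, edgeR adjusted p = 0.0303; 0.886 without it), and the call was lost without pair 1 (0.0980), pair 3 (0.0969) or pair 4 (0.138).

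Of the other negative regulators, Cblb fell beside Sla2. Cblb encodes the ubiquitin ligase Cbl-b, which limits activation in the absence of CD28 signals. It had 264, 144, 216 and 186 CPM in KO libraries 1 to 4, against 276, 202, 341 and 356 CPM in WT. All pairs were lower in KO, and pair 1 differed least. Cblb fell 1.45-fold with the block (log2 -0.54 ± 0.13, edgeR adjusted p = 0.0393; 0.574 without it), a call lost without pair 2 (0.0591), pair 3 (0.156) or pair 4 (0.114). Its relative Cbl was at 163 ± 46.0 CPM in KO and 160 ± 45.8 CPM in WT. Cbl, the transmembrane adaptors Sit1 and Lax1 and the docking proteins Dok1 and Dok2 were not called, with blocked log2 fold changes from -0.26 (Sit1) to 0.04 (Lax1).

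Many members also differed between replicate numbers. A separate edgeR test of the replicate number, with genotype in the model, called 20 of 39 members (51.3%), against 28.8% of all genes tested. In the list of 45 other pathway genes it called 20 (44.4%). The part of the members' higher median level (195 CPM, against 19.6 CPM for all genes tested) in their share was not tested. The count of members ran from 11 to 25 when 1 library was left out. In 32 of 39 members (82.1%, against 85.2% of all genes) the replicate number carried more of the sum of squares of log2 CPM than genotype did, with medians over the members of 70.9% and 16.1%. The replicate number has 3 degrees of freedom and genotype 1, and per degree of freedom it carried more in 22 of 39 members (56.4%, against 66.7% of all genes). The shares of members, 82.1% and 56.4%, are both below those of all genes. Genotype carried more than 50% in 5 of 39 members, against 1176 of the 14672 genes tested. It carried 93.9% in Sla2, 76.1% in Cd247, 63.3% in Tespa1, 59.6% in Fyn and 57.7% in Cd2.

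Libraries 3 and 4 differed from 1 and 2 in both genotypes for some members, at close to the share over all genes. In 10 members (25.6%, against 19.0% of all genes tested; Txk, Plcg1, Grap2, Grb2, Nck1, Themis, Malt1, Ptpn22, Ubash3b and Cbl) both were above 1 and 2 in KO and in WT, and in 8 (20.5%, against 19.3%; Cd3d, Cd5, Prkcq, Lat, Grap, Bcl10, Ptpn6 and Sla) both were below. This division was chosen after the values were seen. Grap, a Grb2-like adaptor, had the smallest adjusted p for the replicate number, with 232, 237, 80.1 and 83.6 CPM in KO libraries 1 to 4, against 188, 184, 66.2 and 78.5 CPM in WT (edgeR adjusted p of the replicate number = 0.000122, 96.5% of the sum of squares). All its pairs were higher in KO, yet edgeR did not call it for genotype (log2 0.26 ± 0.07, edgeR blocked adjusted p = 0.0701).

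**Figure D3:**
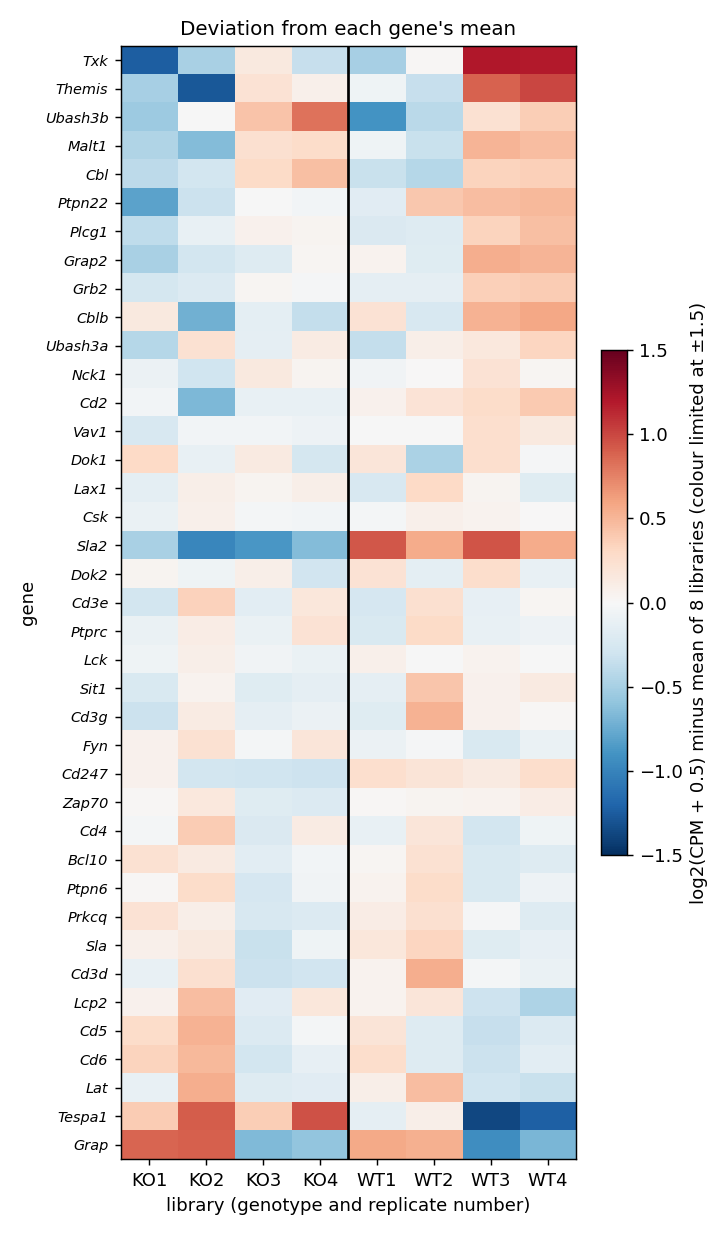
Deviation of each member's log2 level from its mean over the 8 libraries, red for above and blue for below, with KO libraries 1 to 4 left of WT libraries 1 to 4 and members ordered by how libraries 3 and 4 differ from 1 and 2. Libraries of the same number share much of their colour pattern across genotypes at the top and bottom, while Sla2 is blue in all KO and red in all WT libraries.

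Levels were compared between genes after division by the length of all annotated exons (CPM per kb). Cd2 had the highest mean of the members, at 220 ± 40.8 CPM per kb in KO and 301 ± 28.4 in WT. Its WT range did not overlap that of the next member, Lck (194 ± 11.2 in KO, 203 ± 6.20 in WT). In KO the ranges did overlap, at 159.9 to 249.1 for Cd2 and 185.0 to 210.4 for Lck. By WT level Lat (166 ± 45.3 in KO, 162 ± 43.9 in WT) and Cd3d (124 ± 23.6 in KO, 147 ± 32.6 in WT) followed, with ranges that overlapped each other and, for Lat, that of Lck. Zap70 was at 97.4 ± 11.9 CPM per kb in KO and 104 ± 2.82 in WT. The zeta chain gene Cd247 was at 35.3 ± 4.70 CPM per kb in KO and 46.9 ± 1.96 in WT, with means below those of Cd3d, Cd3g and Cd3e in both genotypes. In WT its range (44.45 to 48.76) overlapped that of Cd3e (47.95 to 67.32). The members with the largest fold changes stood at the low end. Tespa1 was at 3.16 ± 0.71 CPM per kb in KO and 1.33 ± 0.69 in WT, Txk at 0.736 ± 0.29 in KO and 1.58 ± 0.86 in WT, and Sla2 at 2.31 ± 0.38 in KO and 6.81 ± 1.06 in WT. Exons of transcripts that these cells do not use add length, so a gene with long alternative ends has its level understated.

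**Figure D4:**
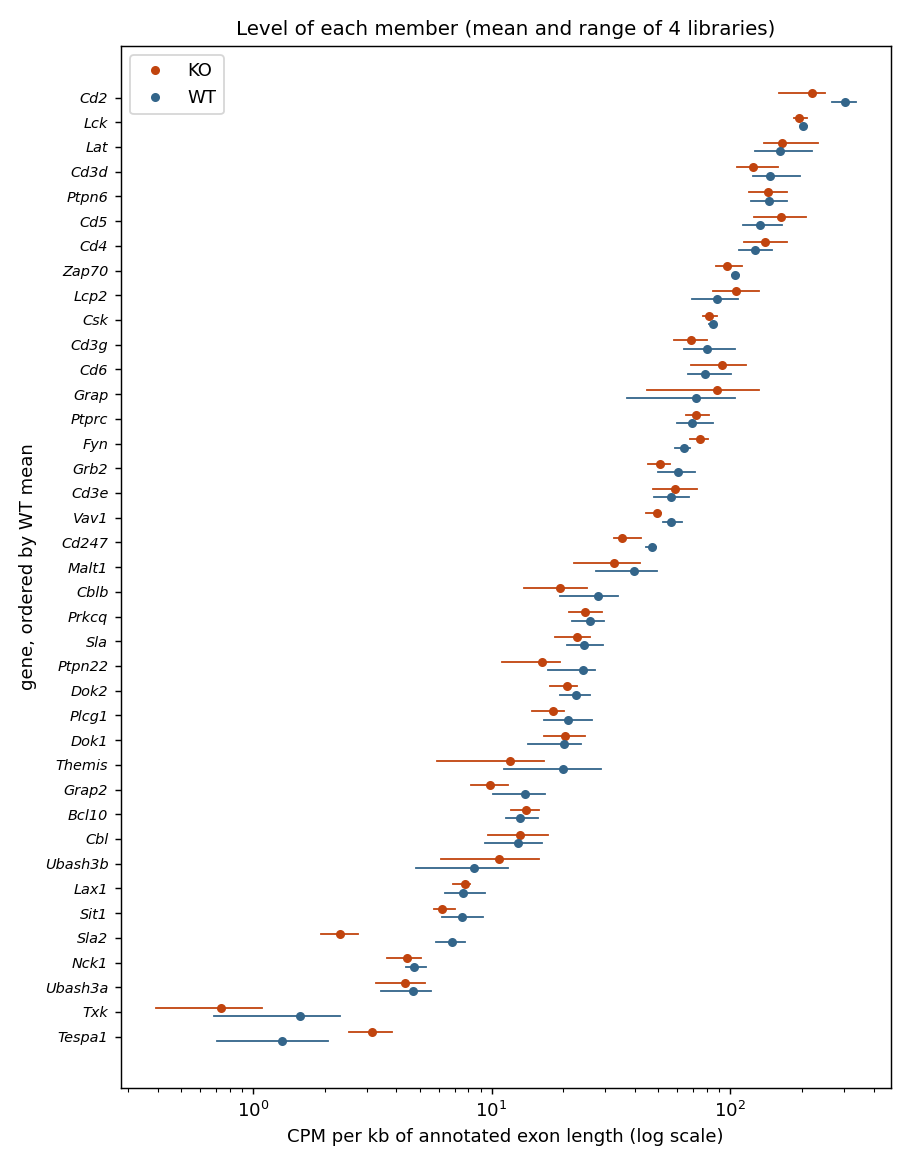
Level of each member in CPM per kb of annotated exon on a log axis, with KO drawn above WT in each row, points at the mean of 4 libraries and lines from the lowest to the highest library. Cd2, Lck and Lat lie at the top, and Tespa1, Txk and Sla2 lie near the bottom, where the KO and WT lines of Tespa1 and Sla2 do not overlap and those of Txk do.

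Downstream and neighbouring genes of the pathway were taken from a list of 45 other genes, all of which were tested. None was called by edgeR without the block. At an unadjusted p under 0.05 there were 5 of 45, against 8.1% of all genes tested. DESeq2 called 1 of 45, Unc119 (adjusted p = 0.0195), against 1.46% of the genes it tested. With the block 0 rose and 3 fell (6.67%, against 6.71% of all genes tested), which is near the background. Rasgrp1, the exchange factor that activates Ras below LAT, was at 81.4 ± 10.8 CPM in KO and 114 ± 24.2 CPM in WT (blocked log2 -0.46 ± 0.07, edgeR adjusted p = 0.00916). Pik3cd, which encodes the catalytic p110-delta subunit of phosphoinositide 3-kinase, was at 272 to 309 CPM in KO libraries and 321 to 504 CPM in WT libraries (blocked log2 -0.50 ± 0.10, edgeR adjusted p = 0.0245). Unc119, an adaptor that helps to activate Lck and Fyn, was at 8.61 ± 1.59 CPM in KO and 13.6 ± 0.85 CPM in WT (blocked log2 -0.66 ± 0.13, edgeR adjusted p = 0.0224). Rasgrp1 lost its blocked call without pair 3, and Pik3cd and Unc119 lost theirs without pair 1, 3 or 4.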

How the data were processed

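The deposited table of the 8 libraries holds the authors' raw read counts, 1 row for each of 49040 gene symbols. Per the submitters' processing notes the tools were Subread 1.5.2 with featureCounts, STAR 2.5.2 and DESeq2, on build GRCm38. The annotation, strand setting and treatment of multiply matching reads were not given in the sources used here, so overlapping genes are uncertain (18 members overlap a gene on the other strand and 12 on their own). Further columns are, per the file headers, log2 fold changes with standard errors by the authors, a test statistic (a score), p-values and adjusted p-values, and a mean signal of counts scaled by library. DESeq2 1.42.0, run on the counts, gave log2 fold changes within 0.000186 of the authors' after the sign was turned (theirs is WT over KO).

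Counts were analysed with edgeR 4.0.16 (quasi-likelihood, TMM factors, filterByExpr, R 4.3.3) over all 14672 genes that passed the filter, with Benjamini-Hochberg adjustment over all of them and a threshold of 0.05. The main model had genotype only. TMM factors scale the CPM values, a prior count of 2 was added for log2 CPM, and fold changes are KO over WT with standard errors. The replicate numbers were taken to pair the libraries because the deviations of same-numbered KO and WT libraries correlated across genes at 0.620, 0.726, 0.732 and 0.612, each library best with its own number; the labels name no shared animal or day. Blocked values stand beside results whose call they change and, for uncalled members, give the narrower error. The precision of a value is limited by 25227017 or more counts per library and 4 libraries per group.

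Values in every library are given for each member called in either fit, each member whose groups do not overlap, and Cd3d, Cd3e, Cd3g, Cd247, Cd4, Lck, Fyn, Zap70, Lat, Lcp2 and Ptprc; Grap was added after its values were seen. Other pathway genes are named if called. The members and lists were chosen with earlier results of these data known. Exon lengths and positions come from the GENCODE M21 annotation of GRCm38, and promoter windows from RefSeq on GRCm38.p6. Alternatives were the block, DESeq2, DESeq2 size factors in edgeR, no filter on low counts, and leaving out each library or pair; DESeq2 with the block, and leaving out the libraries numbered 2 of both groups, or WT libraries 1 and 3, were added after the data were seen.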

Additional observations from a re-analysis of the deposited data

Results flagged for a closer look

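In 4 of the 78 sets of 4 libraries examined (39 members in each genotype), 1 library lay far from the other 3 of its group, by a test that chance passes in about 1 of 20 sets, so this number is close to what chance gives. Cd247 was 226 CPM in KO library 1, where the other KO libraries were at 174 to 178 CPM. Cd2 was 278 CPM in KO library 2, against 410 to 434 CPM in the others. Lat was 645 CPM in KO library 2, against 385 to 410 CPM. Ptpn22 was 116 CPM in WT library 1, against 175 to 184 CPM in the other WT libraries.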

How the results depend on the processing

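The pairing mattered most. Over all genes, the fit with genotype only called 23, the replicate block 984, DESeq2 225 and DESeq2 with the block 1385. Leaving out 1 library gave 14 to 24, leaving out both libraries numbered 2 gave 11, leaving out WT libraries 1 and 3 gave 9, and the block without pair 1, 2, 3 or 4 gave 622, 1437, 398 and 529. Of the members, 1 was called with genotype only (0 higher, 1 lower), 11 with the block (2 higher, 9 lower), 2 by DESeq2 (1 higher), 13 by DESeq2 with the block (3 higher, 10 lower) and 0 in the edgeR fits without the libraries numbered 2 or without WT libraries 1 and 3 (0 lower in both). The last left 2 WT libraries, and Sla2 had an adjusted p of 0.191 in it. The block without pair 1, 2, 3 or 4 called 8, 13, 3 and 5 members (1, 2, 0 and 1 higher; 7, 11, 3 and 4 lower). Of the other pathway genes, 3 were called with the block, 1 by DESeq2, 6 by DESeq2 with the block and 0 to 8 with the block without 1 pair. Leaving out 1 library gave 11 to 25 members that differ between replicate numbers, against 20.

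Uncalled log2 fold changes near 0 changed sign in single settings. Cd3e became -0.057 without KO library 2 and -0.011 without WT library 1, and reached 0.16 without WT library 2. Lat ran from -0.18 without KO library 2 to 0.22 without WT library 2, and was -0.07 without WT library 3 or 4 and -0.0062 with the block without pair 4. Ptprc ran from -0.011 without KO library 4 to 0.18 without WT library 2, and was -0.013 with the block without pair 4 and -0.0026 without WT library 1. Without WT libraries 1 and 3, Cd3e became -0.093, Lat -0.070 and Ptprc -0.073. The cause was not tested. With 4 libraries per genotype, most member calls rest on the block, and differences as small as those of Lck or Zap70 were not detectable.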
